A study of Mus musculus with 6 samples.

Results

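Tissue inhibitors of metalloproteinases and the metalloproteinases of the ADAM, ADAMTS and tolloid families were followed on days 1, 4 and 7 in mouse primary liver cells. The samples are titled pHSCs, read here as primary hepatic stellate cells. The 10 genes were taken by symbol from the TPM table, in which 35999 symbols are listed. They comprise 4 inhibitor genes (Timp1, Timp2, Timp3 and Reck), 4 ADAMTS genes (Adamts1, Adamts2, Adamts4 and Adamts5), the ADAM gene Adam12 and the tolloid gene Bmp1. RNA was sequenced from 2 libraries on each day, replicates 2 and 3 on day 1 and replicates 1 and 2 on days 4 and 7. The labels give liver as the tissue and primary liver cells as the cell type, and they state no strain, age, treatment or plate, nor the event from which days were counted. No label states that replicates are from separate animals or cultures, and if they are not, the p-values below reflect technical spread alone. TPM gives the share of a gene in the transcripts of its library, corrected for length, so levels of different genes may be compared.

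Hepatic stellate cells are liver pericytes that store vitamin A and that turn into matrix-producing myofibroblasts when activated. The amount of matrix they leave depends on its breakdown as well as on its synthesis. TIMP proteins bind the active site zinc of matrix metalloproteinases, TIMP-3 also inhibits several ADAM and ADAMTS proteases, and RECK is a membrane-anchored inhibitor. ADAMTS-2 and BMP-1 remove the N-terminal and C-terminal propeptides of procollagens, steps that precede fibril assembly, whereas ADAMTS-1, ADAMTS-4 and ADAMTS-5 cut proteoglycans such as versican and aggrecan. ADAM-12 is a membrane-anchored protease of mesenchymal cells.

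The TIMP genes and the ADAMTS genes each moved in both directions. Between day 4 and day 1, Timp1, Timp2, Adamts2, Adamts5, Adam12 and Bmp1 rose, and Timp3, Adamts1 and Adamts4 fell, while Reck did not pass the threshold. This was 9 of 10 genes called by limma at an adjusted p under 0.05, against 36.6% of the 14373 genes tested (25.0% higher and 11.6% lower). The libraries of the 2 days did not overlap for any of the 10 genes, with 7 higher and 3 lower on day 4, against 43.0% and 27.8% of all tested genes. Over the 3 days, 9 of 10 were called by the limma F test, against 37.2% of all genes. All 10 passed the filter of at least 1 TPM in at least 2 libraries, but Adamts5 lay below 1 TPM in both day 1 libraries and passed through the later days alone. The genes were chosen with earlier results of these data known, so these shares describe the set and do not test it.

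**Figure D1:**
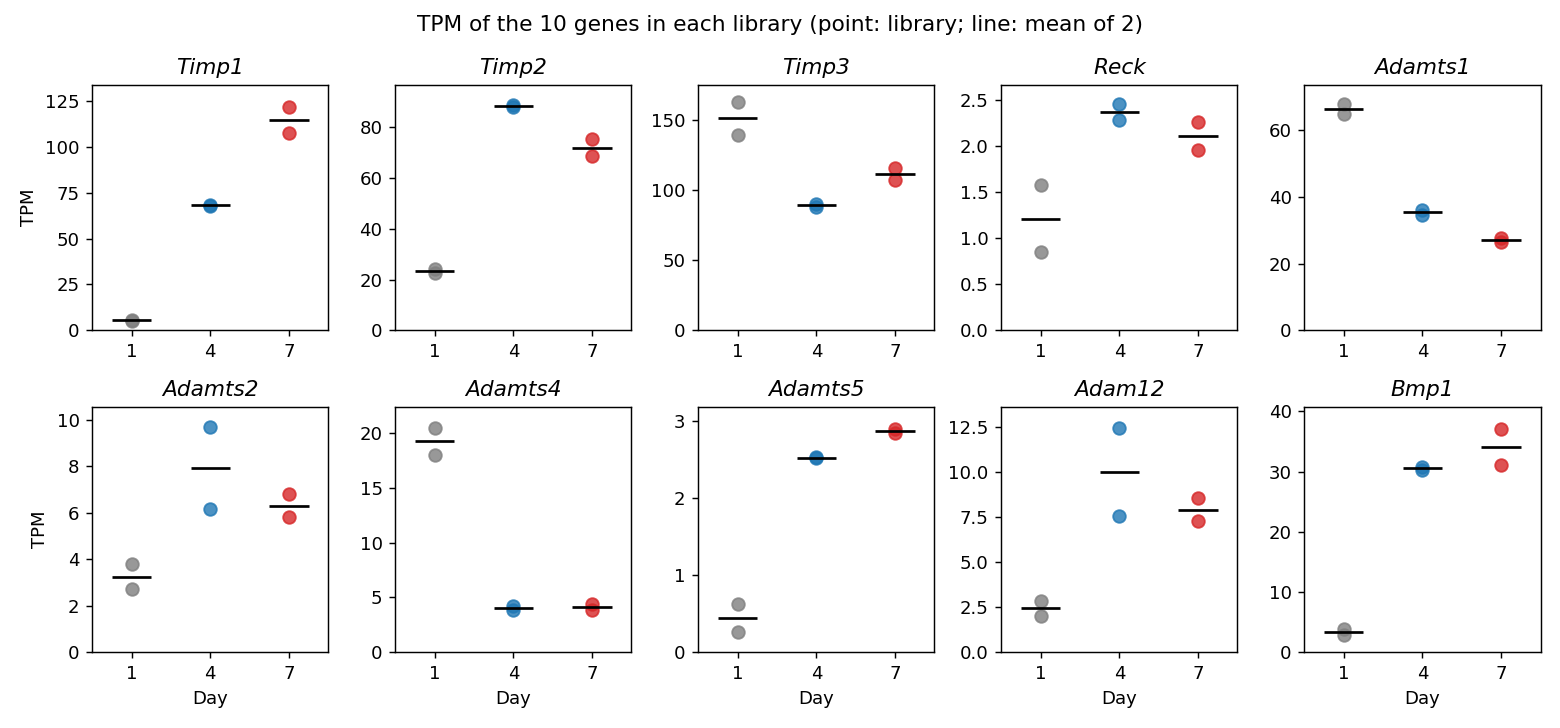
TPM (y axis, linear from 0, a scale of its own in each panel) of the 10 genes on days 1, 4 and 7 (x axis), with a point for each library and a line at the mean of the 2 libraries of a day. Timp1, Timp2, Adamts5, Adam12 and Bmp1 lie low on day 1, Timp3, Adamts1 and Adamts4 lie high on day 1, and Timp1 goes on to its highest values, 108 and 122 TPM, on day 7.

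The composition of the libraries bears on every comparison with day 1. Predicted gene models that each held at least 0.1% of a library, 22 in all, made up 1.86% to 1.97% of the TPM in the libraries of days 4 and 7 and 18.5% and 27.6% in those of day 1, which leaves a smaller remainder for all other genes on day 1. The median log2 change of all tested genes between day 4 and day 1 was 0.11 as deposited, 0.04 after median-ratio scaling, -0.02 after quantile normalization and -0.20 after rescaling without those models. The called genes numbered 3590 higher and 1667 lower as deposited, 2839 and 2504 after quantile normalization, and 2065 and 3329 after that rescaling. Under that rescaling, the changes of all 10 genes of the set between day 4 and day 1 were lower than as deposited and kept their sign. Timp1 had 3.16 instead of 3.46, Timp2 1.53 instead of 1.87, Timp3 -1.10 instead of -0.75 and Adamts1 -1.24 instead of -0.89. For day 7 against day 1 the median of all tested genes was 0.04 as deposited and -0.28 after that rescaling, with 3546 higher and 2410 lower genes against 2191 and 4475. The 10 stellate cell markers, all above 0 in at least 1 library, summed to 180 to 227 TPM on day 1, 783 to 794 on day 4 and 730 to 781 on day 7, of which Dcn alone had 87.8 to 132, 611 to 628 and 607 to 659 TPM. Of 9 tested, 6 rose and none fell between day 4 and day 1. Between day 7 and day 1, 5 rose and 2 fell (Rgs5 by 0.86 and Hgf by 0.37, limma adjusted p of 0.00894 and 0.0242). Of all tested genes, 25.0% rose and 11.6% fell between day 4 and day 1, and 24.7% and 16.8% between day 7 and day 1. The counts of the lists that follow stand against the same shares. The 9 myofibroblast markers summed to 60.0 to 75.6, 1772 to 1857 and 1745 to 1873 TPM, and all 9 rose between day 4 and day 1. The 12 macrophage markers, none at 0 throughout, summed to 10530 to 13460, 27050 to 27110 and 26100 to 28370 TPM, and 10 of them rose between day 4 and day 1. The 9 mesothelial markers summed to 22.5 to 26.6, 72.7 to 77.8 and 93.3 to 125 TPM, with 7 higher on day 4 than on day 1. The 10 endothelial markers summed to 1155 to 1402, 1273 to 1331 and 1294 to 1298 TPM. Of these, 4 rose and 3 fell between day 4 and day 1. The 6 cholangiocyte markers summed to 31.5 to 38.9, 138 to 144 and 656 to 706 TPM, mostly Spp1 in every library (30.6 and 22.9 TPM on day 1). The 4 B cell markers summed to 4.10 to 4.78, 7.23 to 8.41 and 5.23 to 5.26 TPM. Those of neutrophils, 6 in all, summed to 31.7 to 33.5, 28.5 to 39.0 and 26.8 to 27.3 TPM. The remaining lists had lower sums on the later days. The 8 hepatocyte markers summed to 42.6 to 52.4, 2.67 to 4.44 and 1.58 to 2.43 TPM, and all 5 tested fell between day 4 and day 1. Of these, Apoa1, Ttr, Serpina1a and Cyp2e1 reached 1 TPM on day 1 alone. They passed the filter only through the day on which they were high, so their direction is no independent result. The 6 dendritic cell markers summed to 35.0 to 48.1, 13.7 to 16.0 and 9.47 to 10.96 TPM (3 of 5 tested fell). Those that fell, Flt3, Siglech and Ccr7, also reached 1 TPM on day 1 alone. The 8 T and NK cell markers summed to 41.5 to 45.6, 19.4 to 21.4 and 9.33 to 10.1 TPM (2 of 7 tested fell). Among the markers counted as rising, Lrat, Hand2, Cnn1, Lox, Upk3b, Upk1b, Lrrn4 and Gpm6a lay below 1 TPM in both day 1 libraries. These passed the filter through the later days alone. In every library the macrophage and the endothelial sums lay above the stellate cell sum, though sums of different markers do not give shares of cells. The part of these cell types in the changes below was not tested. In RNA from a whole culture, fewer cells of a type and less RNA per cell cannot be told apart.

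Timp1 and Adamts1 are shown by the 250 bases before their transcription start, because Timp1 had the largest rise of the set and Adamts1 was the most abundant protease gene of the set on day 1 and fell. The sequences are from RefSeq on GRCm38.p6 and read 5′ to 3′ in the direction of the gene, chrX:20869916-20870165 on the plus strand for Timp1 and chr16:85803114-85803363 on the minus strand for Adamts1. Capitals mark matches on either strand to any of 6 motifs.
Timp1: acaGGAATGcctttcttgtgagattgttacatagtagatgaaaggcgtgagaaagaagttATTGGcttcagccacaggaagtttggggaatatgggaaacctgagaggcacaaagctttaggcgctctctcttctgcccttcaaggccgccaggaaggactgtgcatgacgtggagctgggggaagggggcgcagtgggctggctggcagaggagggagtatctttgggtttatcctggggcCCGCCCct
Adamts1: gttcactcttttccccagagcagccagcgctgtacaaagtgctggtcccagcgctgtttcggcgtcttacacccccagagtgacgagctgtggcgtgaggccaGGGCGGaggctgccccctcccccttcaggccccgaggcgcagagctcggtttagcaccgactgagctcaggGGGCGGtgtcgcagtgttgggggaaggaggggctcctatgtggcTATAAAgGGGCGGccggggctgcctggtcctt

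The 2 windows differ in the letters they hold. The Adamts1 window has a TATA box (TATAAA) that begins 32 bases before the start and GC boxes (GGGCGG) that begin 147, 76 and 25 bases before it. The Timp1 window has no TATAAA, 1 GC box beginning 8 bases before the start, 1 CCAAT box beginning 190 bases before it and 1 match to the TEAD motif (GGAATG) beginning 247 bases before it. Neither window holds the AP-1 consensus TGANTCA or its variant TGAGTAA. Of 32851 such windows in the RefSeq table, 12.4% hold TATAAA, 32.7% GGGCGG, 33.9% CCAAT, 12.6% GGAATG, 6.75% TGANTCA and 2.25% TGAGTAA. The windows of 6 of the 10 genes were matched by symbol, those of Adamts4, Adamts5, Adam12 and Bmp1 were not, and these matches are letters in a window with no measurement of binding.

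Timp1, the TIMP gene best known from scarred liver, rose most. Its level was 5.09 and 5.54 TPM on day 1, 68.1 and 68.5 TPM on day 4, and 108 and 122 TPM on day 7. The days did not overlap, and each library of a later day lay above both of the day before. The log2 change was 3.46 between day 4 and day 1 (SE 0.11, limma adjusted p = 2.3e-05) and 4.19 between day 7 and day 1 (SE 0.11, limma adjusted p = 1e-05). Among all 35999 symbols, Timp1 ranked 9890 and 9949 by TPM on day 1, 2231 and 2167 on day 4, and 1288 and 1131 on day 7. On day 7 the mean was 1.68 times that on day 4, a log2 change of 0.74 (SE 0.11, 95% interval 0.47 to 1.00) that missed the threshold (limma adjusted p = 0.0661). That change passed when only days 4 and 7 were fitted (limma adjusted p = 0.0166), a fit that called 609 genes in all against 67. It missed the threshold under every alternative that kept all libraries. There the limma adjusted p ranged from 0.0501 (at least 5 TPM in 2 libraries) to 0.158 (no filter on low genes). The log2 change stayed at 0.74 without either day 1 library. It was 0.65 to 0.83 on leaving out 1 library of day 4 or day 7. The gene lies on chromosome X from 20870166 to 20874735 (GRCm38, plus strand) within the gene Syn1, which runs on the opposite strand, had 0.957 to 12.9 TPM and shares no exonic base with it.

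Timp2 encodes an inhibitor that also takes part in the activation of pro-MMP-2 by MMP-14. It had 24.3 and 22.5 TPM on day 1, 87.9 and 88.8 on day 4, and 75.3 and 68.6 on day 7. The later libraries lay well above both day 1 libraries, and day 7 lay below day 4 without overlap. The rise between day 4 and day 1 was 1.87 on the log2 scale (SE 0.10, limma adjusted p = 9.7e-05), and between day 7 and day 1 it was 1.58 (SE 0.10, limma adjusted p = 0.000153). The difference between day 7 and day 4 was -0.29 (95% interval -0.55 to -0.04, limma adjusted p = 0.349). Timp2 lies on chromosome 11 from 118301069 to 118355740 on the minus strand.

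Timp3, whose protein is held in the matrix and inhibits ADAM-17 and the aggrecan-cleaving ADAMTS proteases, went the other way. It had 139 and 163 TPM on day 1, 90.2 and 88.2 on day 4, and 115 and 107 on day 7. Day 4 was the lowest day and day 7 lay between the others, with no overlap between any of the days. Timp3 fell between day 4 and day 1, with a log2 change of -0.75 (SE 0.12, limma adjusted p = 0.00526). With 1 library of day 4 left out the change no longer passed, at -0.77 without replicate 1 (limma adjusted p = 0.0517) and -0.73 without replicate 2 (limma adjusted p = 0.0594). Timp3 was also lower on day 7 than on day 1, by a log2 change of -0.43 (SE 0.12, limma adjusted p = 0.0307). That call was lost on leaving out either library of day 4 (adjusted p = 0.0853 for both), replicate 1 of day 7 (adjusted p = 0.113) or replicate 2 of day 7 (adjusted p = 0.173). It also missed it when low genes were not filtered out (adjusted p = 0.0549) and when only the 2 days were fitted (adjusted p = 0.088). Its difference between day 7 and day 4 was 0.32 (95% interval 0.03 to 0.61, limma adjusted p = 0.379). Timp3 lies on chromosome 10 from 86300372 to 86349506 within Syn3 on the opposite strand, and 1733 of its 8144 exonic bases are also exonic in Syn3, which had 0.181 to 1.33 TPM.

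The balance between the 3 TIMP RNAs shifted with day, and these shares do not depend on how a library is scaled. Timp1 made up 3.02% and 2.90% of the summed Timp1, Timp2 and Timp3 TPM on day 1, 27.7% and 27.9% on day 4, and 36.1% and 40.9% on day 7. Timp3 made up 82.6% and 85.3% on day 1, against 36.6% and 35.9% on day 4 and 38.7% and 36.1% on day 7. Timp2 peaked on day 4, with shares of 14.4% and 11.8% on day 1, 35.7% and 36.2% on day 4, and 25.3% and 23.1% on day 7. The level of Timp1 over that of Timp3 was 0.0365 and 0.0340 on day 1, 0.755 and 0.776 on day 4, and 0.932 and 1.13 on day 7. The summed TPM was 169 and 191, then 246 and 245, then 298 and 298 on the 3 days. Unlike the shares, this sum depends on the scaling. The abundant predicted gene models held 18.5% and 27.6% of the TPM on day 1, and the sum without them was not computed. Its difference between day 1 and the later days is therefore not separated from that composition. On day 4 Timp1 was the lowest of the 3 genes and the levels of Timp2 and Timp3 overlapped, and on day 7 those of Timp1 and Timp3 overlapped.

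**Figure D2:**
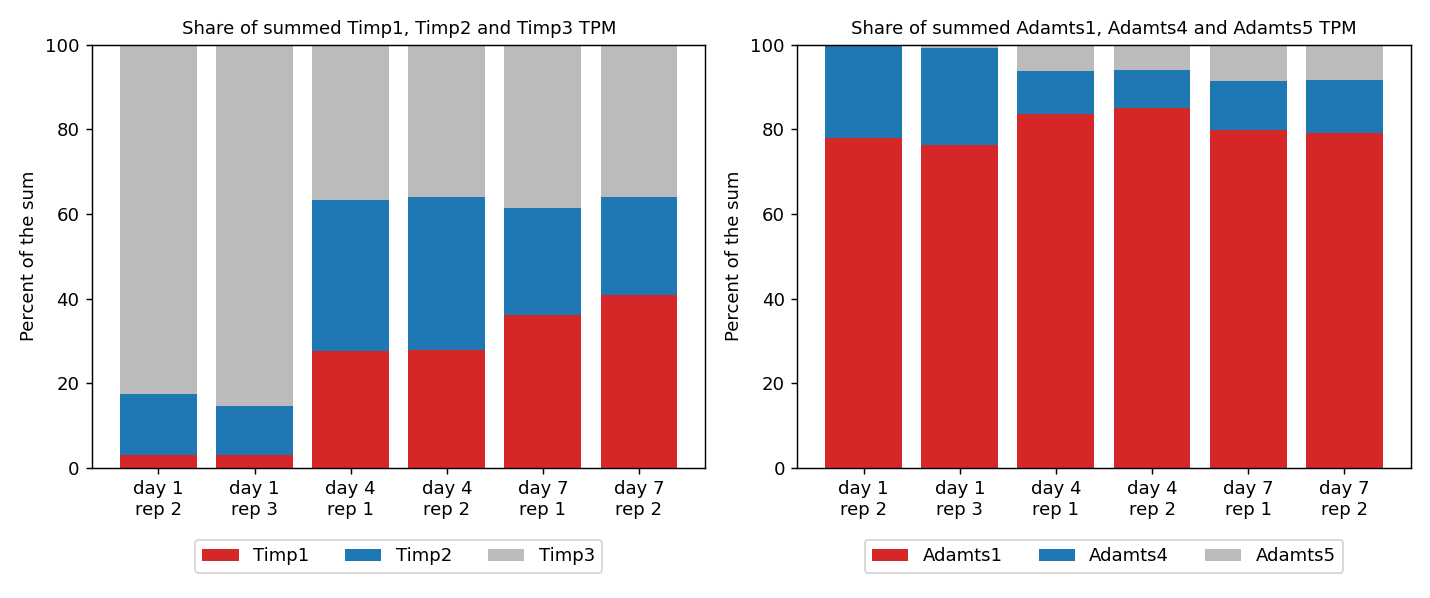
Share of each gene (percent, stacked to 100) in the summed TPM of Timp1, Timp2 and Timp3 (left) and of Adamts1, Adamts4 and Adamts5 (right), with a bar for each of the 6 libraries in order of day. Timp1 takes 2.90% to 3.02% of its sum on day 1, 27.7% to 27.9% on day 4 and 36.1% to 40.9% on day 7, and Adamts5 takes 0.323% to 0.707%, 5.91% to 6.14% and 8.29% to 8.53% of its sum on the same days.

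Reck was the lowest of the 4 inhibitor genes. It had 0.847 and 1.58 TPM on day 1, 2.45 and 2.28 on day 4, and 2.26 and 1.96 on day 7. The day 1 libraries lay below all later ones but differed from each other more than the later ones did. The change between day 4 and day 1 was 0.63 (95% interval 0.08 to 1.17, limma adjusted p = 0.0726), and between day 7 and day 1 it was 0.51 (95% interval -0.04 to 1.06, limma adjusted p = 0.116). Without day 1 replicate 3 both changes were larger (0.87 and 0.75), and without day 1 replicate 2 the change between day 4 and day 1 was 0.39. That change passed with a plain variance model (limma adjusted p = 0.0497). After rescaling without the abundant predicted models it was 0.42 (limma adjusted p = 0.243). Reck lies on chromosome 4 from 43875530 to 43944806.

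Other inhibitor genes were few. Timp4 was at most 0.48 TPM in any library and was not tested. A2m, which encodes the protease trap alpha-2-macroglobulin, had 1.44 and 1.99 TPM on day 1, 25.5 and 24.1 on day 4, and 20.5 and 22.1 on day 7. It rose between day 4 and day 1 by 3.26 on the log2 scale (limma adjusted p = 5.9e-05). Pzp, a related protease trap gene, fell (-1.49, limma adjusted p = 0.00614), and its mean was 0.139 TPM on day 4 and 2.20 TPM on day 1. It reached 1 TPM on day 1 alone and so passed the filter only through the day on which it was high.

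The proteoglycan-cleaving ADAMTS genes split. Adamts1 had 64.8 and 68.1 TPM on day 1, 34.5 and 36.2 on day 4, and 26.6 and 27.7 on day 7. Each day lay below the one before, with no overlap. It fell between day 4 and day 1 by 0.89 on the log2 scale (SE 0.10, limma adjusted p = 0.00129) and between day 7 and day 1 by 1.26 (SE 0.10, limma adjusted p = 0.00028), while the difference of -0.37 between day 7 and day 4 (95% interval -0.61 to -0.13) missed the threshold (limma adjusted p = 0.22). Its gene lies on chromosome 16 from 85793827 to 85803113 on the minus strand, close to Adamts5, which lies from 85856173 to 85901828 on the same strand.

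Adamts4 fell more steeply and was low from day 4. It had 18.0 and 20.5 TPM on day 1, 4.24 and 3.87 on day 4, and 3.86 and 4.42 on day 7. Days 4 and 7 overlapped and both lay below day 1. The change was -2.0 between day 4 and day 1 (SE 0.15, limma adjusted p = 0.000286) and -1.98 between day 7 and day 1 (SE 0.15, limma adjusted p = 0.000245). Adamts4 lies on chromosome 1 from 171250421 to 171260637.

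Adamts5 rose and was the lowest of the 10 genes on day 1. It had 0.269 and 0.631 TPM on day 1, 2.54 and 2.52 on day 4, and 2.84 and 2.90 on day 7. No 2 days overlapped, and the mean on day 7 was 6.38 times that on day 1. The change of log2(TPM + 1), which understates changes at such levels, was 1.29 between day 4 and day 1 (SE 0.20, limma adjusted p = 0.00505) and 1.43 between day 7 and day 1 (SE 0.20, limma adjusted p = 0.003). With log2(TPM + 0.1) the first of these was 2.34 (limma adjusted p = 0.00743). The summed TPM of Adamts1, Adamts4 and Adamts5 was 83.1 and 89.2 on day 1, 41.3 and 42.6 on day 4, and 33.3 and 35.0 on day 7, and Adamts1 held 76.3% to 85.0% of it in every library. The level of Timp3, the inhibitor of these proteases, over that sum was 1.68 and 1.83 on day 1, 2.19 and 2.07 on day 4, and 3.47 and 3.07 on day 7.

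The procollagen-processing genes rose. Bmp1, which encodes the procollagen C-proteinase, had 2.89 and 3.85 TPM on day 1, 30.3 and 30.7 on day 4, and 37.1 and 31.0 on day 7. All later libraries lay far above day 1. Its rise was 2.86 on the log2 scale between day 4 and day 1 (SE 0.16, limma adjusted p = 9.7e-05) and 3.01 between day 7 and day 1 (SE 0.16, limma adjusted p = 6.9e-05), and the difference between day 7 and day 4 was 0.15 (95% interval -0.24 to 0.53). Bmp1 lies on chromosome 14 from 70474558 to 70520234 on the minus strand. Its rise in mean TPM was 9.06 times between day 4 and day 1, the next after the 12.8 times of Timp1 among the 10 genes.

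Adamts2, which encodes the procollagen N-proteinase, had 2.70 and 3.79 TPM on day 1, 9.70 and 6.18 on day 4, and 6.80 and 5.82 on day 7. Day 1 lay below the later days, and days 4 and 7 overlapped. The rise between day 4 and day 1 was 1.06 (SE 0.24, limma adjusted p = 0.0193), but it was 0.77 without day 4 replicate 1 (adjusted p = 0.104), 0.78 after rescaling without the abundant predicted models (adjusted p = 0.0699) and missed the threshold when only the 2 days were fitted (adjusted p = 0.0509). The change between day 7 and day 1 was 0.79 (SE 0.24, limma adjusted p = 0.043). It no longer passed on leaving out replicate 2 of day 1 (0.61, adjusted p = 0.113), replicate 1 of day 7 (0.70, adjusted p = 0.2) or replicate 2 of day 7 (0.89, adjusted p = 0.127), nor with no filter on low genes (adjusted p = 0.0869), after quantile normalization (0.63, adjusted p = 0.0637) and after that rescaling (0.52, adjusted p = 0.169). The level of Bmp1 over that of Adamts2 was 1.07 and 1.02 on day 1, 3.13 and 4.97 on day 4, and 5.45 and 5.33 on day 7. The gene lies on chromosome 11 from 50602084 to 50807573.

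Among their partners, Pcolce, which encodes an enhancer of BMP-1, had 3.97 and 3.43 TPM on day 1, 41.0 and 38.7 on day 4, and 37.0 and 34.0 on day 7, a rise of 3.12 between day 4 and day 1 (limma adjusted p = 3.6e-05). Pcolce2 rose by 1.68 over the same interval (limma adjusted p = 0.00153). Of 6 tolloid and procollagen-processing genes besides these proteases, 4 were tested. Between day 4 and day 1, 2 of them rose and none fell, against 25.0% and 11.6% of all tested genes. A further list held 13 genes for procollagens, lysyl oxidases and small proteoglycans. BMP-1 or ADAMTS-2 are known to cut their products, or these are relatives of such substrates. Of the 13, 11 were tested, 10 rose and none fell over that interval, against the same shares of all tested genes. Their median log2 change was 2.35, against 0.11 over all tested genes. Col5a2 rose by 5.91, Col3a1 by 5.45 and Lox by 4.59 (limma adjusted p of 7.6e-06, 7.6e-06 and 1.7e-05). Lox, Loxl1 and Col11a1 lay below 1 TPM in both day 1 libraries and passed the filter through the later days alone. Col3a1 was the 1 gene of that list called between day 7 and day 4, and it fell by 0.85 (limma adjusted p = 0.033).

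Adam12 rose and was the least even of the 10 genes between day 4 libraries. It had 2.03 and 2.85 TPM on day 1, 12.5 and 7.58 on day 4, and 7.27 and 8.57 on day 7. Day 4 replicate 1 was the highest library for both Adam12 and Adamts2. The change was 1.65 between day 4 and day 1 (SE 0.26, limma adjusted p = 0.00473), or 1.33 without that library (adjusted p = 0.0271). Against day 1, day 7 gave 1.38 (SE 0.26, limma adjusted p = 0.00805), or 1.28 without day 7 replicate 2, which missed the threshold (adjusted p = 0.0672). The gene lies on chromosome 7 from 133883199 to 134232146 on the minus strand.

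**Figure D3:**
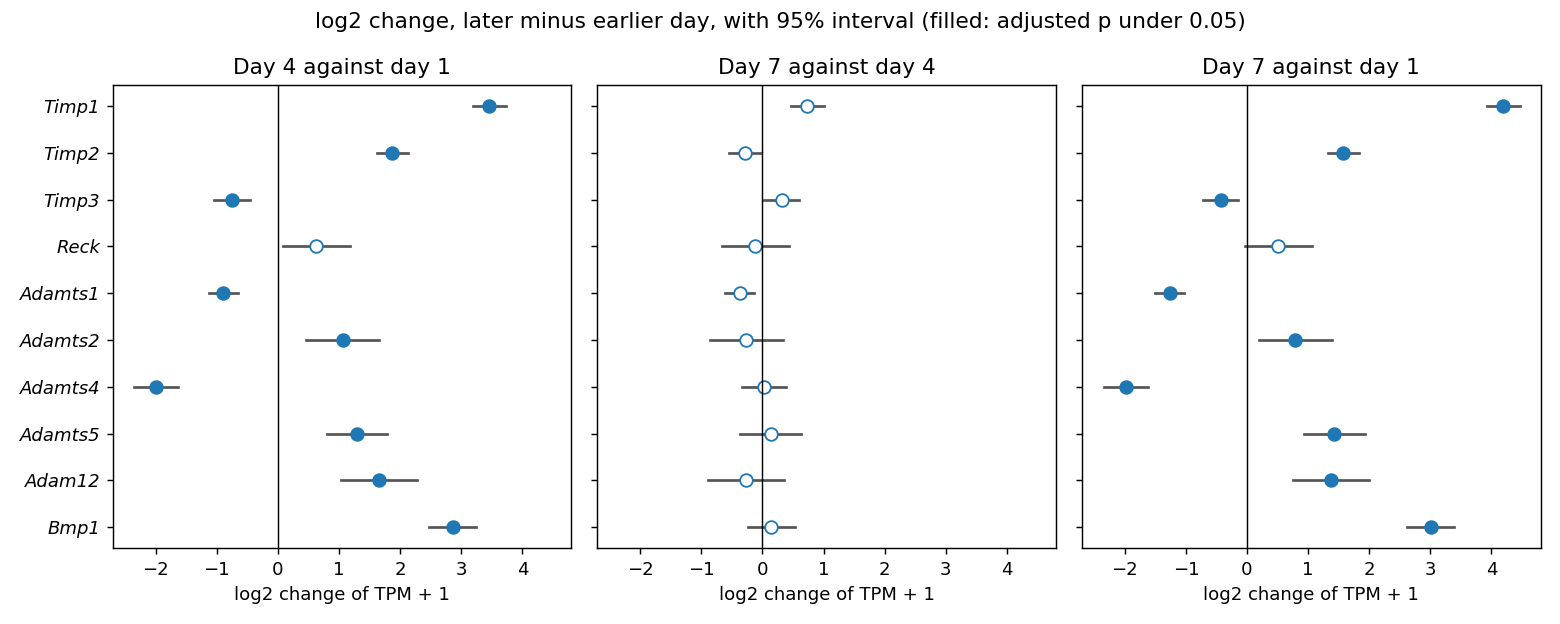
log2 change of TPM + 1 (x axis, later minus earlier day) of the 10 genes (rows), with its 95% interval from the limma fit, in a panel for each pair of days. Filled points passed an adjusted p under 0.05, which holds for 9 genes between day 4 and day 1, none between day 7 and day 4, and 9 between day 7 and day 1.

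Between day 7 and day 4, none of the 10 genes was called by limma, against 0.466% of all genes. At an unadjusted p under 0.05 there were 4 (Timp1, Timp2, Timp3 and Adamts1), against 11.9% of all genes. The libraries of the 2 days overlapped for Adamts2, Adamts4 and Adam12, and did not for the other genes, with 4 higher and 3 lower on day 7, against 18.8% and 33.9% of all genes. On day 7 against day 1, 9 of 10 genes were called, against 41.4% of all genes (24.7% higher and 16.8% lower), with Timp1, Timp2, Adamts2, Adamts5, Adam12 and Bmp1 higher and Timp3, Adamts1 and Adamts4 lower. This comparison shares the day 1 libraries with that of day 4 and day 1, so the 2 are not independent.

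The order of levels changed between the first and the last day. On day 1 Timp3 was highest, followed by Adamts1, Timp2, Adamts4 and Timp1, with no overlap between neighbours, then by Bmp1, Adamts2 and Adam12, each overlapping the next, and by Reck and Adamts5, which did not overlap. On day 7 Timp1 and Timp3 led and overlapped, followed without overlap by Timp2, Bmp1, Adamts1, Adam12, Adamts2, Adamts4, Adamts5 and Reck.

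Other ADAMTS and ADAM genes were tested in the same fit. Of 15 other ADAMTS genes, 6 were tested. Of these, 4 rose and 1 fell between day 4 and day 1, against 25.0% and 11.6% of all tested genes. Their median was 0.64, against 0.11 over all genes. Adamts12 had 1.01 and 1.61 TPM on day 1, 11.5 and 11.8 on day 4, and 16.3 and 16.0 on day 7, a rise of 2.46 between day 4 and day 1 (limma adjusted p = 0.000211). Adamts7, a protease gene known from vascular smooth muscle, fell by 1.29 over that interval (limma adjusted p = 0.0014), with 28.0 and 34.7 TPM on day 1, 12.2 and 12.1 on day 4, and 6.94 and 7.74 on day 7. Adamts14, a relative of Adamts2 with procollagen N-proteinase activity, rose by 0.84 (limma adjusted p = 0.0227). Of 7 ADAMTS-like genes, whose proteins lack the protease domain, 4 were tested. Between day 4 and day 1, Adamtsl5 alone was called (1.02, limma adjusted p = 0.0293), against 36.6% of all tested genes.

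Of 12 other ADAM genes, 10 were tested, of which 7 rose and 1 fell between day 4 and day 1, against 25.0% and 11.6% of all tested genes (median 0.72, against 0.11). Adamdec1 rose by 2.19 (limma adjusted p = 8.8e-05), Adam15 by 1.36 (limma adjusted p = 0.00192) and Adam19 by 1.25 (limma adjusted p = 0.00933). Adam8, a protease gene of leukocytes, was called in each comparison. It had 55.6 and 59.7 TPM on day 1, 39.6 and 38.6 on day 4, and 102 and 95.8 on day 7. It rose by 1.31 between day 7 and day 4 (limma adjusted p = 0.0143) and was the 1 called gene of these lists of ADAM and ADAMTS genes in that comparison.

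**Figure D4:**
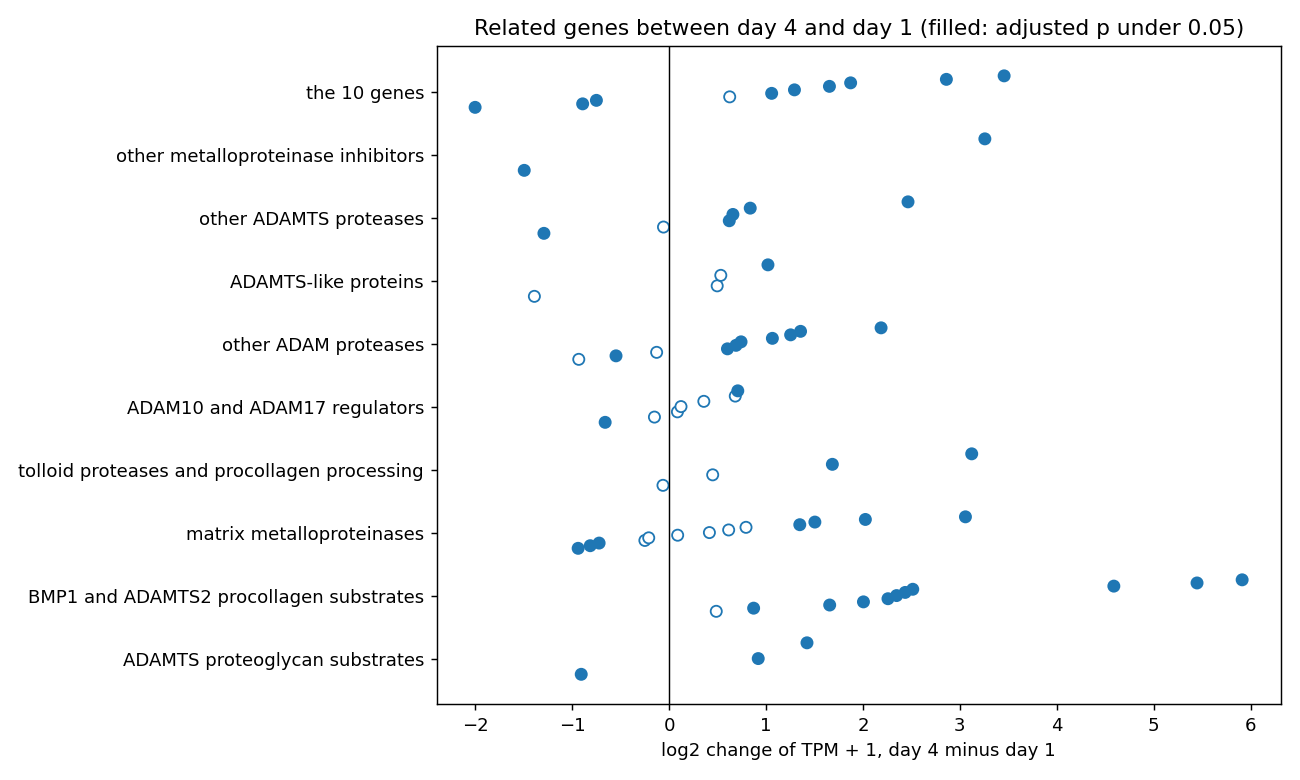
log2 change of TPM + 1 between day 4 and day 1 (x axis) of each tested gene of 10 lists (rows), with filled points for an adjusted p under 0.05. The list of procollagen and related substrates reaches 5.91 (Col5a2) with 10 of 11 genes filled to the right of 0, whereas the 10 genes of this set and the matrix metalloproteinases lie on both sides.

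The matrix metalloproteinase genes that the TIMP proteins inhibit also went both ways. Of 23 listed, 13 were tested, of which 4 rose and 3 fell between day 4 and day 1, against 25.0% and 11.6% of all tested genes, with a median of 0.42 against 0.11. Mmp10 rose by 3.06 (limma adjusted p = 9.7e-05), Mmp23 by 2.02 (limma adjusted p = 0.00436) and Mmp2 by 1.5 (limma adjusted p = 0.000512). Mmp2 had 4.70 and 5.29 TPM on day 1, 16.7 and 15.3 on day 4, and 12.9 and 12.9 on day 7. Mmp14, named after its values were seen because its protein forms the activating complex with TIMP-2 and pro-MMP-2, had 171 and 217 TPM on day 1, 101 and 99.8 on day 4, and 61.8 and 72.1 on day 7, and fell by 0.94 between day 4 and day 1 (limma adjusted p = 0.00531). Between day 7 and day 4 the collagenase gene Mmp8 was the 1 called metalloproteinase gene, with a rise of 1.62 (limma adjusted p = 0.033) and means of 13.0 TPM on day 7 and 3.55 TPM on day 4. For day 7 against day 1, 7 of the 13 metalloproteinase genes rose and 2 fell, against 24.7% and 16.8% of all tested genes. The summed TPM of Timp1, Timp2 and Timp3 over that of the listed metalloproteinase genes was 0.0869 and 0.136 on day 1, 0.102 and 0.0974 on day 4, and 0.0991 and 0.0907 on day 7. The days overlapped in this ratio, and Mmp12, a macrophage elastase gene, made up 61.4% to 84.3% of its denominator.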

How the data were processed

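RNA of 6 libraries was measured, 2 on each of days 1, 4 and 7. The authors deposited TPM for each symbol in each library. Trimmomatic, HISAT2 2.0.5 and StringTie 1.3.3b, with mm10 and GRCm38, are named per the submitters' processing notes. Not given in the sources used here are the annotation, the use of strand and the summing of transcripts. TPM values keep no depth, so the depth is unknown and no counting error was computed. No batch is named.

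The 14373 genes that reached 1 TPM in 2 or more libraries were fitted as log2(TPM + 1) with limma 3.58.1 in R 4.3.3, with day as a factor, trended robust variances and 3 residual degrees of freedom. Benjamini-Hochberg adjustment ran over all tested genes within a comparison, and an adjusted p under 0.05 was called. The fit was tested on simulated data, drawn independently and without a shift in composition, so that test does not cover the composition of day 1. A change of log2(TPM + 1) understates the change of low genes. A gene below 1 TPM on some days passed the filter through the other days, so counts of rises and falls partly reflect the filter.

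The 10 genes, the lists of related genes and markers and the alternatives were chosen with earlier results of these data known. Besides the 10 genes, the text names up to 3 called genes of each list with the largest change per comparison, or the 2 most abundant where none was called, and genes with the nearest profile. Positions are from GENCODE M21 on GRCm38. Promoter windows are from RefSeq on GRCm38.p6 and are shown without the bases after the start. Alternatives were other pseudocounts (0.1 and 0.5), filters, scalings and variance models, a fit of the 2 days compared, a replicate block and leaving out each library. Python 3.11.15 and matplotlib 3.10.9 made the figures. An annotation detail of Adamts4 is not reported here.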

Additional observations from a re-analysis of the deposited data

How the results depend on the processing

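Over the 30 changes of the 10 genes (10 genes in 3 comparisons), 474 alternative values were computed, of which 445 kept direction and side of the threshold, 19 lost the threshold, 6 gained it and 4 changed sign. Those 4 were uncalled differences between day 7 and day 4. On leaving out 1 library, they ranged over -0.55 to 0.023 for Adamts2, -0.60 to 0.052 for Adam12 and -0.055 to 0.10 for Adamts4, which turned sign without day 4 replicate 1 (Adamts2, Adam12) and without replicate 2 of day 4 or of day 7 (Adamts4). The 9 genes called between day 4 and day 1 numbered 7 to 10 without 1 library and 8 to 10 under the other alternatives, and the 9 between day 7 and day 1 numbered 6 to 10 and 7 to 9. Between day 7 and day 4, the 1 gene that passed when only those days were fitted was Timp1, and without 1 library 0 to 1 passed. Over all genes, leaving out 1 library gave 2196 (without day 4 replicate 2) to 7602 calls (without day 1 replicate 2) against 5257 between day 4 and day 1, 0 to 546 against 67 between day 7 and day 4, and 2684 to 7979 against 5956 between day 7 and day 1. For day 7 against day 4 the count was also 4 without a filter, 37 after quantile normalization and 609 when only those days were fitted. With the replicate block it was 31, and the block called 3999 genes between day 4 and day 1. Under the block 1 pairwise call of the 10 genes was lost, Adamts2 between day 7 and day 1 (adjusted p = 0.0621), and the F test called 7 of them against 9. Number 2 is shared by all 3 days and number 1 by days 4 and 7. The differences between replicates 1 and 2 on days 4 and 7 had a correlation of 0.004 over genes, and the deviations of replicate 2 from its day mean one of 0.067 for days 1 and 4 and -0.056 for days 1 and 7, so the samples were taken to share only a number. The cause of these shifts was not tested. Where a library is left out, the lone library of its day is assumed to vary like the other days. Depth is unknown, so no limit of detection can be given for the low genes Adamts5 and Reck.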

Other observations

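Genes for hyaluronan-binding proteoglycans, some of them cut by ADAMTS proteases, and for their partners were mostly low. Of 12 genes for hyaluronan-binding proteoglycans, link proteins, hyaluronan synthases and the hyaluronan receptor, 3 were tested. Vcan, which encodes versican, had 1.37 and 1.46 TPM on day 1, 3.58 and 3.56 on day 4, and 4.57 and 3.77 on day 7, and rose by 0.92 between day 4 and day 1 (limma adjusted p = 0.00903). The hyaluronan synthase gene Has2 rose by 1.42 (limma adjusted p = 0.00231), with a mean of 2.25 TPM on day 4 and 0.212 TPM on day 1. Has2 passed the filter of 1 TPM through the later days alone. Cd44, the hyaluronan receptor gene, fell by 0.91 (limma adjusted p = 0.00913), with a mean of 86.1 TPM on day 4 and 164 TPM on day 1. Acan, the aggrecan gene, was at most 0.03 TPM in any library.

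Of 9 regulators of ADAM-10 and ADAM-17, 7 were tested, and 1 rose and 1 fell between day 4 and day 1, no larger a share than the 36.6% called over all tested genes. The tetraspanin gene Tspan17 rose by 0.71 (limma adjusted p = 0.00574), and Rhbdf2, whose protein is needed for ADAM-17 maturation, fell by 0.66 (limma adjusted p = 0.0286).

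Genes with the nearest profile were sought by the root mean square distance between centred log2(TPM + 1) values over the 6 libraries, in which the step between day 1 and later days dominates. For Timp1 they were Mki67 (distance 0.11), Hist2h3c2 (0.11), one of a family of near-identical histone genes, and S100a6 (0.12), with means of 33.5, 66.1 and 822 TPM on day 7 and 1.27, 3.06 and 50.8 TPM on day 1. For Timp2 they were Maged2 (0.03), Mxra8 (0.05) and P2ry13 (0.07), and for Timp3 Ptpn12 (0.05), Rbpj (0.05) and Ipo4 (0.06). Adamts1 was nearest to Xdh, Trafd1 and Cmtm3 (0.05 to 0.07). Adamts4 was nearest to Cd74, Slfn10-ps and Parp14 (0.07 to 0.09), and Cd74 averaged 962 TPM on day 1, 250.3 on day 4 and 253 on day 7. Bmp1 was nearest to Cdh11, Cenpa and Exo1 (0.07 to 0.13), and Adamts5 to Vcl, Fzd6 and Lig1 (0.05). Reck was nearest to Wwc2, Rora and Ccnyl1 (0.03 to 0.07), Adamts2 to Kcp, Lrrn4cl and Dbn1 (0.11 to 0.13), and Adam12 to Mmgt2, Atoh8 and Trbv13-2 (0.12 to 0.15), the last of which was listed at 0 in both day 1 libraries.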
